A study of Mus musculus with 2 samples.

Results

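T cells were examined among CD45+ cells from mouse hearts profiled by scRNA-Seq. They were picked by transcript counts alone, among barcodes with more than 500 and fewer than 6000 detected genes and under 25% mitochondrial UMIs. A cell barcode was taken when it had at least 2 unique molecular identifiers (UMIs, each counting 1 RNA molecule) of Cd3d and Cd3e together, the CD3 chains that every T cell carries with its antigen receptor. It was dropped when it had more than 3 UMIs of the complement genes C1qa, C1qb, and C1qc, which mark cardiac macrophages, more than 2 UMIs of the B cell genes Cd79a, Cd79b, and Ms4a1, more than 1 UMI of the NK cell genes Ncr1 and Klre1, any UMI of the ILC2 genes Il1rl1, Calca, and Hlf, or 1% or more of its UMIs on the neutrophil genes S100a8 and S100a9. The rule held for 231 of 11078 kept barcodes, 172 of 5641 in the control library and 59 of 5437 in the ISO library. Their depth ran from 967 to 19592 UMIs with a median of 5120 in the control library, and from 2848 to 38232 UMIs with a median of 8963 in the ISO library.

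The hearts came from WT female C57BL6 mice killed 24 hours after an i.p. injection. ISO mice received isoproterenol, a β-adrenergic agonist, at 200 mg/kg as a model of stress-induced cardiomyopathy, and control mice received vehicle. The deposited descriptions give the ISO dose for both samples, so the control library was identified by its title and by the study's methods. Live CD45+ cells, that is, leukocytes of every kind, were sorted from collagenase-digested hearts, and the cells of 3 hearts were pooled in 1 library per group. Each group is therefore a single library, and no test between the groups was possible. Values below are UMI counts scaled to a common library total (CPM, counts per 1e+06 UMIs) summed over barcodes, and all intervals are 95% intervals that cover counting error only, not the spread between mice.

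T cells recognize peptides on MHC molecules through the T cell receptor (TCR), whose signal is carried into the cell by the CD3 chains and kinases such as Lck. CD4 on helper cells and CD8 on cytotoxic cells bind MHC class II and class I, respectively. Naive and central memory T cells carry CCR7 and recirculate through lymph nodes, whereas effector and tissue-resident cells lose this receptor and gain chemokines, cytotoxic proteins, and receptors such as CXCR6. A smaller lineage with gamma and delta TCR chains settles in barrier and other tissues, and part of it makes interleukin 17.

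The name of this population held in the control library but not in the ISO library. A list of 28 measured macrophage genes that the rule did not use took a median of 0.113% of the UMIs of a control T cell barcode, with a range of 0 to 3.15%. In ISO T cell barcodes the median was 2.45%, with a range of 0.0640% to 7.72%. Barcodes chosen as macrophages, with at least 10 C1q UMIs and no Cd3d, Cd3e, Cd79a, Cd79b, or Ms4a1 UMI, had medians of 4.71% in the control and 4.72% in the ISO library. Most ISO barcodes thus held both T cell and macrophage transcripts, although they passed the limit on C1q.

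**Figure D1:**
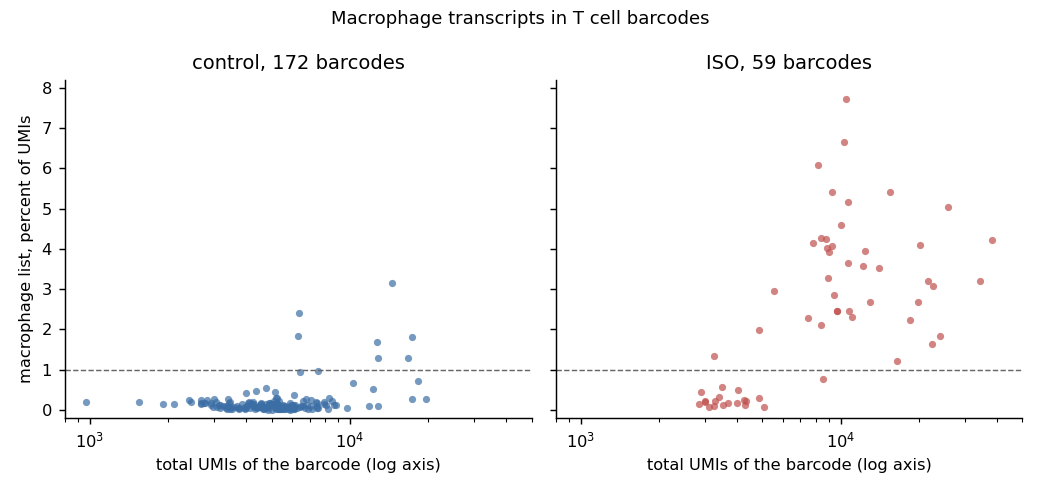
Each point is 1 T cell barcode of the control (left) or ISO (right) library, placed by its total UMIs (log axis) and by the percent of those UMIs on the 28 macrophage genes; the dashed line marks 1%. In the control library 7 of 172 barcodes lie above the line, and in the ISO library 40 of 59 do, most of them near 10000 UMIs.

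Barcodes with less than 1% of their UMIs on the macrophage list are called macrophage-low here, a limit chosen after the data were seen. They numbered 165 of 172 in the control library, or 95.9% (interval 91.8% to 98.3%), and 19 of 59 in the ISO library, or 32.2% (20.6% to 45.6%). The 19 macrophage-low ISO barcodes had a median of 3517 UMIs, and the 40 others had 10543.5, close to the 10315 of ISO macrophage barcodes. Despite the larger total, the median number of UMIs on 17 T cell transcripts that the rule did not use was 22 in the 40 macrophage-high and 24 in the macrophage-low ISO barcodes. Of the 28 macrophage genes, 9 were at 0 in the macrophage-low ISO barcodes and 0 were at 0 in the macrophage-high ones. Lyz2, a macrophage lysozyme, stood at 153 CPM in macrophage-low control, 267 CPM in macrophage-low ISO, and 8874 CPM in macrophage-high ISO barcodes. The barcodes were split on these 28 genes, Lyz2 among them, so the differences between macrophage-low and macrophage-high barcodes follow from the split. The macrophage-low ISO barcodes also held fewer UMIs in sum, 74866 against 542150 in the macrophage-high ones. When the mean profile of macrophage barcodes was scaled to the macrophage list, it amounted to 6.47% of the UMIs of control T cell barcodes and 62.8% of those of ISO T cell barcodes. Whether such barcodes are doublets, cells with engulfed material, or T cells in free RNA was not tested. Each comparison between the libraries is therefore given with all T cell barcodes and with the macrophage-low ones.

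The limits of the rule fell differently in the libraries. Of barcodes with at least 2 Cd3d and Cd3e UMIs, 650 were in the control and 187 in the ISO library. The C1q limit was failed by 425 and 109 of these, and it was the only failed limit for 158 and 66. Just inside the CD3 limit, at 2 UMIs, were 18 control and 13 ISO members, and just outside it, at 1 UMI, were 19 control and 25 ISO barcodes. No barcode with 4 C1q UMIs was otherwise eligible in the control library and 1 was in the ISO library, against 2 and 0 members with 3. C1q UMIs were entirely absent from 124 control and 49 ISO members. The libraries shared 15 barcode sequences, none of them a member.

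T cell barcodes made up a smaller share of CD45+ barcodes after ISO. They were 3.05% (2.62% to 3.53%) of kept control barcodes and 1.09% (0.827% to 1.398%) of kept ISO barcodes, a log2 ratio of -1.49 (-1.91 to -1.07). Counting the macrophage-low barcodes alone, the shares were 2.93% and 0.349%, a log2 ratio of -3.07 (-3.75 to -2.38). These are shares of sorted cells, and the number of T cells per heart was not measured in these files.

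Other lymphocytes were scarcer still, so the direction turned with the denominator. B cell barcodes were 26.8% of kept control and 1.78% of kept ISO barcodes, and NK cell barcodes were 7.52% and 1.18%. Among T, B, NK, and ILC2 barcodes together, T cells were 172 of 2287 in the control, or 7.52% (6.47% to 8.68%), and 59 of 352 in the ISO library, or 16.8% (13.01% to 21.08%), a log2 ratio of 1.16. Among macrophage-low T, B, and NK barcodes they were 8.01% and 21.1%. For B and NK cell barcodes, here and below, macrophage-low means under 1% of UMIs on 25 of the 28 macrophage genes, without 3 that NK cells use, so that some of these barcodes exceeded 1% on the full list, reaching 1.51% in B and 1.59% in NK cell barcodes. T cells were thus a smaller part of all leukocytes and a larger part of the lymphocytes in the ISO library.

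The antigen receptor complex was a case of a difference that depended on the macrophage-high barcodes. Of the 4 compared genes of the TCR-CD3 complex that the rule did not use, 3 (Cd247, Trbc1, and Trbc2) were at least 2-fold lower in the ISO library over all T cell barcodes, and the log2 ratios ran from -1.51 for Cd247 to -0.84 for Cd3g. The background was that 16.1% of 7327 compared genes were at least 2-fold higher and 16.4% at least 2-fold lower. In the macrophage-low barcodes 0 of the 4 passed 2-fold in either direction, with ratios from -0.53 for Cd247 to 0.85 for Cd3g, where 13.6% of 5652 genes were at least 2-fold higher and 13% lower. The counts of list genes between the libraries in the paragraphs that follow are to be read against these shares. Cd3g, a CD3 chain that the rule did not use, had 610 CPM in control and 340 CPM in ISO barcodes when all were counted, whereas the macrophage-low ones had 648 CPM (596 to 703) and 1162 CPM (931 to 1433). Within macrophage-low CD8 barcodes its log2 ratio was 0.30 (-0.29 to 0.81), from 33 ISO UMIs. In macrophage-low barcodes without a Cd4, Cd8a, or Cd8b1 UMI it was 1.17 (0.70 to 1.59), from 54 ISO UMIs. Trbc2, which encodes the constant region of the TCR β chain, was at 625 and 282 CPM in all barcodes. The macrophage-low ones had 654 CPM (602 to 710) and 628 CPM (461 to 835), with overlapping intervals. Trbc1 and Trbc2 are near-identical copies, so the split of reads between them is uncertain.

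Of 20 TCR signaling genes, 13 were at least 2-fold lower in the ISO library over all barcodes, and 1 was in the macrophage-low ones. Lck, the kinase bound to the coreceptors, was at 256 CPM (224 to 292) and 254 CPM (153 to 396) in the macrophage-low barcodes. The exception was Cd28, the costimulatory receptor, which was lower in ISO both ways. It was at 253 and 38.9 CPM over all barcodes. Macrophage-low barcodes had 269 CPM (236 to 305) and 120 CPM (54.97 to 228), a log2 ratio of -1.09 (-2.31 to -0.21) from 9 ISO UMIs. None of the 19 macrophage-low ISO barcodes was a CD4 barcode, however, against 38 of 165 in the control, and within macrophage-low CD8 barcodes the ratio of Cd28 was -0.36 (-1.81 to 0.65).

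**Figure D2:**
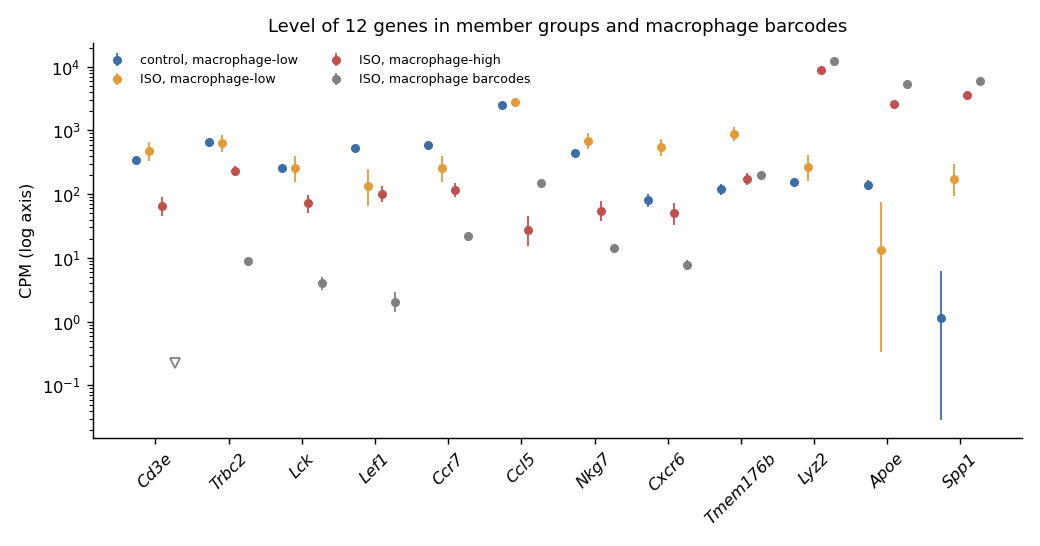
Levels of 12 genes, in CPM on a log axis, are plotted for macrophage-low control, macrophage-low ISO, and macrophage-high ISO T cell barcodes and for ISO macrophage barcodes; bars are exact Poisson 95% intervals, and the open triangle is the upper bound of a group with 0 UMIs. Trbc2 and Lck are level between the macrophage-low groups, Cd3e, Trbc2, and Lck are lower in the macrophage-high barcodes, and Lef1 and Ccr7 are lower and Cxcr6 and Tmem176b higher in macrophage-low ISO than in macrophage-low control barcodes.

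Some transcripts of naive and central memory cells, Lef1 and Ccr7 among them, were lower in ISO T cells, also without macrophage-high barcodes. Of the 17 such genes compared, 11 were at least 2-fold lower over all barcodes and 4 (Bach2, Ccr7, Lef1, and Satb1) in the macrophage-low ones, and none was 2-fold higher in either. Their median log2 ratio was -1.32 over all barcodes, against -0.05 for all compared genes, and -0.45 in the macrophage-low ones, against 0.11. Lef1, a transcription factor of naive T cells, was at 526 CPM (480 to 576) in macrophage-low control and 134 CPM (64.0 to 246) in macrophage-low ISO barcodes, a log2 ratio of -1.91 (-3.05 to -1.09). Ccr7, the receptor for entry to lymph nodes, was at 586 CPM (537 to 638) and 254 CPM (153 to 396), a log2 ratio of -1.17 (-1.95 to -0.55). Satb1, a chromatin organizer of T cells, was at 1057 and 427 CPM, a log2 ratio of -1.28 (-1.86 to -0.80), but it was also lower in macrophage-low B cell barcodes, at -1.12.

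The naive program did not move as a block. Klf2, the factor that maintains S1pr1, was at 662 CPM (610 to 718) in macrophage-low control and 1095 CPM (871 to 1360) in macrophage-low ISO barcodes. Il7r, the survival receptor for interleukin 7, was at 648 CPM (596 to 703) and 975 CPM (764 to 1226). Tcf7, the partner of Lef1, was at 557 CPM (509 to 608) and 401 CPM (270 to 572). Of these 3, Klf2 and Il7r were higher in ISO beyond their counting intervals, and the intervals of Tcf7 overlapped. Within CD8 barcodes the ratio of Il7r was 0.39 (-0.19 to 0.90), and in barcodes without a coreceptor it was 0.90 (0.35 to 1.39). Klf2 was higher in CD8 barcodes and lower, with 2 ISO UMIs, in barcodes without a coreceptor, and its ratio was 1.13 in macrophage-low B cell and -1.85 in macrophage-low NK cell barcodes.

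At an equal depth of 1000 UMIs per barcode, which left out 1 control barcode, a Lef1 UMI was found in 70 of 164 macrophage-low control barcodes, or 42.7% (35.0% to 50.6%), and in 2 of 19 ISO barcodes, or 10.5% (1.30% to 33.1%). Without thinning, the shares were 77.6% and 31.6%. B cell barcodes, which should lack the gene, had a Lef1 UMI in 1.79% of control and 2.06% of ISO barcodes after thinning, and macrophage barcodes in 0.773% and 0.225%. The median depths before thinning were 5048 and 3517 UMIs in the T cells and 3461 and 7712 UMIs in the B cells. The control share of T cells lay above the B cell background, whereas the interval of the ISO share, which rests on 2 barcodes, included it. For Ccr7, which B cells also express, 37.2% and 15.8% of the thinned macrophage-low T cell barcodes had a UMI.

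Effector and memory genes split. Of the 27 compared, 7 were at least 2-fold higher and 12 lower over all barcodes, and 9 and 6 in the macrophage-low ones, where the median log2 ratio was 0.63. Of all compared genes, 16.1% were higher and 16.4% lower over all barcodes, and 13.6% and 13% in the macrophage-low ones. Cxcr6, the chemokine receptor of tissue-resident T cells, was at 79.8 CPM (62.4 to 101) in macrophage-low control and 548 CPM (393 to 743) in macrophage-low ISO barcodes, a log2 ratio of 2.79 (2.187 to 3.353). It was found in 21 of 165 and 8 of 19 barcodes. Of the 41 ISO UMIs, 38 lay in the 7 barcodes without a coreceptor UMI, where the log2 ratio was 2.68 (2.03 to 3.31), and 3 lay in CD8 barcodes. S100a4, a calcium-binding protein of memory T cells that macrophages also express, was at 656 CPM (603 to 711) and 2151 CPM (1831 to 2510), a log2 ratio of 1.72 (1.45 to 1.97). Its ratio was 3.03 in macrophage-low B cell and 1.18 in macrophage-low NK cell barcodes. Its level in macrophage barcodes was 533 CPM (control) and 2478 CPM (ISO), and the part of macrophage transcripts in these ratios was not tested.

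Cytotoxic and chemokine genes lay in few barcodes. Ccl5, a chemokine stored by memory CD8 T cells, was at 2281 and 368 CPM over all barcodes, while the macrophage-low ones had 2466 CPM (2364 to 2571) and 2832 CPM (2463 to 3240). These UMIs came from 37 of 165 macrophage-low control and 4 of 19 macrophage-low ISO barcodes, so the level is that of a small group of cells. Nkg7, a cytotoxic granule protein, was at 436 CPM (394 to 482) and 681 CPM (507 to 896), in 74 and 9 macrophage-low barcodes. Gzma, the granzyme with the largest difference over all barcodes, had 544 UMIs in the control and 1 in the ISO library. However, 384 of the 544 came from 1 barcode, and the gene was found in 9 control barcodes in all. Ifng, which encodes interferon gamma, had 77 UMIs in 17 control barcodes and 1 UMI in 1 ISO barcode.

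The Nr4a family, orphan nuclear receptors that TCR and cAMP signals induce, was lower in the ISO library once macrophage-high barcodes were left out. Nr4a1 was at 416 and 604 CPM over all barcodes, but at 360 CPM (321 to 401) in macrophage-low control, 93.5 CPM (37.6 to 193) in macrophage-low ISO, and 675 CPM (608 to 748) in macrophage-high ISO barcodes. Macrophage barcodes themselves had 709 CPM (control) and 691 CPM (ISO). Nr4a2 and Nr4a3 had macrophage-low log2 ratios of -2.33 (-4.09 to -1.22) and -1.91 (-3.22 to -1.01), from 5 and 8 ISO UMIs. Nr4a1 was also lower in macrophage-low B cell barcodes, at -0.79 (-1.16 to -0.47). Of 14 early activation genes, Irf4, Nr4a1, Nr4a2, and Nr4a3 were at least 2-fold lower and Bhlhe40 and Il2ra at least 2-fold higher. Of all genes compared in the macrophage-low barcodes, 13.6% were at least 2-fold higher and 13% lower. In macrophage-low ISO barcodes Il2ra had 0 UMIs in CD8 barcodes and 10 in those without a coreceptor UMI, and Bhlhe40 had 4 and 15. Irf4 had 0 ISO UMIs in both.

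The immediate early genes Fos and Jun, subunits of the AP-1 transcription factor, went the other way. Fos was at 251 CPM (219 to 286) in macrophage-low control and 681 CPM (507 to 896) in macrophage-low ISO barcodes, and Jun at 217 CPM (187 to 250) and 454 CPM (315 to 635). Their log2 ratios were 1.45 and 1.08, and they were 1.24 and 1.67 in macrophage-low B cell barcodes. In macrophage-low NK cell barcodes they were 0.45 (-0.08 to 0.90) and -0.48 (-1.14 to 0.06). They were the only 2 of 17 immediate early genes past 2-fold in the macrophage-low T cells, against 9 over all barcodes. The count of 2 is near the share of all genes compared in the macrophage-low barcodes, of which 13.6% were at least 2-fold higher. Fos and Jun are also known to respond to cell dissociation, and the part of handling in these values was not tested.

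Proliferation genes were low in ISO T cells. Of 16 cell cycle genes compared over all barcodes 9 were at least 2-fold lower, and of 15 compared in the macrophage-low ones 10 were, with none higher, at medians of -1.64 and -1.57. In the control library the signal came from few barcodes: Mki67, a marker of cycling cells, had 41 UMIs in 7 of 172 barcodes, 22 of them in 1. No Mki67 UMI was found in the 19 macrophage-low ISO barcodes, which allows a share of up to 15.8% of barcodes with a UMI.

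Glycolysis genes separated the libraries mainly through the macrophage-high barcodes. Of 16 glycolysis genes, 10 were at least 2-fold higher in ISO over all barcodes, at a median of 1.61, and in the macrophage-low ones 2 of 14 (Eno1 and Hk2), at 0.37. Of all compared genes, 16.1% were at least 2-fold higher over all barcodes and 13.6% in the macrophage-low ones. Ldha, lactate dehydrogenase A, was at 285 and 822 CPM over all barcodes, at 277 CPM (243 to 313) and 427 CPM (292 to 603) in the macrophage-low ones, and at 812 CPM in ISO macrophage barcodes. Of 27 compared macrophage genes 26 were at least 2-fold higher over all barcodes, at a median of 3.09, and 3 of 14 in the macrophage-low ones, with 3 lower. The macrophage-low barcodes were chosen on this list, so its smaller count there follows from that choice. The 5 compared MHC class II genes were also at least 2-fold higher in macrophage-low ISO barcodes, but 1 barcode held 76 of the 77 H2-Aa UMIs.

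Glucocorticoid and interferon response lists had medians near those of all compared genes, -0.05 over all barcodes and 0.11 in the macrophage-low ones. MHC class I genes lay lower in both sets, and adrenergic and cAMP genes lay lower in the macrophage-low one. The median log2 ratio of glucocorticoid response genes was 0.11 over all barcodes (21 genes) and 0.02 in the macrophage-low ones (18 genes), and Tsc22d3, a glucocorticoid target, was at 364 CPM (326 to 406) and 387 CPM (259 to 556) in the latter. Interferon response genes had medians of -0.00 (21 genes) and 0.32 (19 genes), and MHC class I genes -0.95 and -0.26 (14 genes each). Among 19 adrenergic and cAMP genes, with a macrophage-low median of -0.36, Nr4a1, Pde4d, Pde7a, and Prkacb were at least 2-fold lower and Prkaca at least 2-fold higher. Pde7a, a phosphodiesterase that degrades cAMP, was at 200 CPM (172 to 232) and 26.7 CPM (3.24 to 96.5), from 2 ISO UMIs.

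**Figure D3:**
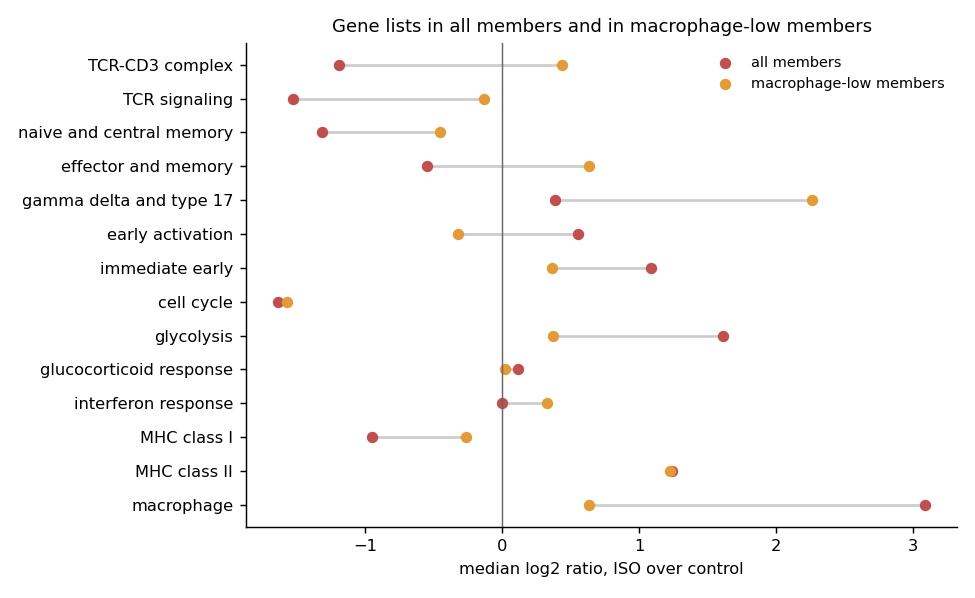
The median log2 ratio, ISO over control, of 14 gene lists is plotted for all T cell barcodes (red) and for macrophage-low barcodes (orange); the vertical line marks no difference. The TCR-CD3 complex (with Cd3d and Cd3e, which the rule used), effector and memory, and early activation lists lie on opposite sides of the line in the 2 sets, naive and cell cycle lists lie below it in both, and gamma delta and type 17 genes lie above it in both.

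The genes with the largest differences over all barcodes were those of inflammatory macrophages. Ccl24, an eosinophil chemokine, had 0 control and 255 ISO UMIs, at least 134-fold higher against a floor of 3 counts in the control library. Spp1, which encodes osteopontin, was at 4.10 and 3193 CPM, a log2 ratio of 9.44, and Ccl2, a monocyte chemokine, at 6.15 and 3587 CPM, a log2 ratio of 9.07. Vcan, Chi3l3, Ccl12, Cxcl3, Saa3, AA467197, and Gm14023 completed the first 10. In the macrophage-low ISO barcodes Ccl24 and Chi3l3 had 0 UMIs, Vcan had 2, Ccl2 had 7, and Spp1 had 13. Arg1, which was at 955 CPM over all ISO barcodes and at 666 CPM in ISO macrophage barcodes, also had 0. Spp1 and Arg1 are on the macrophage list by which the macrophage-low barcodes were chosen. Their low counts there follow at least in part from that choice, so no conclusion is drawn from them.

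At the other end were Gzma, mt-Tp, Stmn1, Lars2, Gm15564, Gm26924, Cmah, Cd28, Pde7a, and Ccl5. Lars2, a mitochondrial leucyl-tRNA synthetase, was at 1507 and 190 CPM over all barcodes, and at a log2 ratio of -1.78 (-2.34 to -1.31) in the macrophage-low ones. The same ratio was -1.43 in macrophage-low B cell and -1.72 in macrophage-low NK cell barcodes. Gm26924, a transcript that overlaps ribosomal RNA sequence, took 57456 CPM of control and 8645 CPM of ISO T cell UMIs, and its macrophage-low ratio of -1.38 compares with -1.51 in B and -1.51 in NK cell barcodes. Both genes therefore differed between the libraries alike in 3 lymphocyte types.

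The macrophage-low barcodes had their own order, listed after the data were seen. Tmem176a, Tmem176b, Bcl2a1b, Cxcr6, Ddt, Cd163l1, Lmo4, Fgl2, Ctsz, and Nhp2 led the genes higher in ISO, and Gzma, Hopx, Ppm1b, Itgb1, Gm15564, Apoe, mt-Tp, Safb, Pde7a, and Rpl5-ps1 those lower. Ctsz and Apoe are on the macrophage list by which these barcodes were chosen. Bcl2a1b, a survival gene of the Bcl2 family with near-identical copies, was at 61.8 CPM (46.6 to 80.5) and 427 CPM (292 to 603), in 32 and 6 barcodes, where ISO macrophage barcodes had 663 CPM. Lmo4, a LIM-domain transcription cofactor, was at 130 CPM (108 to 156) and 735 CPM (553 to 956), in 56 and 7 barcodes. In barcodes without a coreceptor UMI its log2 ratio was 2.63 (2.07 to 3.18), from 49 ISO UMIs. Ddt, with 20 of its 24 ISO UMIs in 1 barcode, rests on a single cell.

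Among the genes lower in macrophage-low ISO barcodes, Itgb1, the integrin β1 chain, was at 222 CPM (192 to 255) and 13.4 CPM (0.338 to 74.4), a log2 ratio of -3.47 (-9.36 to -1.56). Over all barcodes its levels of 217 and 201 CPM were alike, and macrophage-high ISO barcodes had 227 CPM. Hopx, a homeodomain protein of effector T cells, had 114 UMIs in 55 control and 0 in ISO macrophage-low barcodes, at least 3.20-fold lower. Ppm1b, a phosphatase, had 89 and 0, at least 2.50-fold lower. Dusp10 and Actn1 were lower in both settings, with macrophage-low log2 ratios of -1.82 (-3.03 to -0.95) and -1.77 (-3.34 to -0.74).

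The coreceptors divided the T cells into groups of unequal size. In the control library 79 of 172 barcodes had Cd8a or Cd8b1 UMIs without Cd4 (45.9%, 38.3% to 53.7%), 40 had Cd4 alone (23.3%, 17.2% to 30.3%), 3 had both, and 50 had none (29.1%). In the ISO library 25 of 59 were CD8 (42.4%, 29.6% to 55.9%), 9 were CD4 (15.3%, 7.22% to 27.0%), 0 had both, and 25 had none. CD8 barcodes were 66.4% (57.2% to 74.8%) of CD4 and CD8 barcodes in control hearts and 73.5% (55.6% to 87.1%) after ISO, with overlapping intervals.

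All 9 CD4 barcodes of the ISO library were macrophage-high. The 19 macrophage-low ISO barcodes comprised 12 CD8 and 7 without a coreceptor UMI, and 0 of 19 with Cd4 allows a share of up to 15.8%. The 165 macrophage-low control barcodes comprised 38 CD4 (23.03%), 77 CD8, 3 with both, and 47 without. After thinning to 1000 UMIs, a Cd4 UMI was left in 16 of 171 control and 1 of 59 ISO T cell barcodes, and in 8 of 905 control (0.884%) and 0 of 1332 ISO macrophage barcodes. Before thinning, 3.31% of control macrophage barcodes had a Cd4 UMI at a median of 6700 UMIs, and 0.526% of ISO ones at 10315. Cd4 is a sparse transcript, and many barcodes without a coreceptor UMI may be cells in which none was captured.

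CD8 T cells of the control library differed from CD4 T cells in cytotoxic and cell cycle genes rather than in naive genes. Of 4723 compared genes, 6.03% were at least 2-fold higher and 3.73% at least 2-fold lower in CD8 barcodes. Of 25 effector and memory genes 9 were higher (Ccl5, Ctsw, Gzma, Gzmb, Gzmm, Itgae, Klrd1, Ly6c2, and Nkg7) and 2 lower (Ccr2 and Itgb1), and of 17 naive and central memory genes 0 passed in either direction, at a median log2 ratio of 0.06. Ccr7 was at 542 CPM (451 to 647) in CD4 and 696 CPM (623 to 774) in CD8 barcodes, a log2 ratio of 0.36 (0.06 to 0.67). Lef1 was at 485 CPM (398 to 584) and 522 CPM (459 to 591), and Tcf7 at 569 CPM (475 to 676) and 503 CPM (441 to 571), both with overlapping intervals.

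Ccl5 was at 1009 CPM (883 to 1149) in CD4 and 3478 CPM (3312 to 3649) in CD8 barcodes, in 8 of 40 and 21 of 79 of them. Nkg7 was at 190 CPM (137 to 255) and 652 CPM (581 to 728), in 8 and 57 barcodes. Klrd1, which encodes the CD94 chain of NK receptors, was at 48.5 CPM (24.2 to 86.7) and 189 CPM (152 to 232), in 4 and 50 barcodes. Nkg7 and Klrd1 were thus spread over most CD8 barcodes, whereas Ccl5 was found in a minority. Bend4, a BEN-domain protein, was at 8.81 CPM (1.07 to 31.8) and 176 CPM (140 to 218), in 1 and 41 barcodes, a log2 ratio of 4.01 (2.42 to 7.39). It was also higher in ISO CD8 barcodes, by 1.52 (0.31 to 3.18).

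Cycling transcripts belonged to a few CD8 barcodes. Of 15 cell cycle genes 10 were at least 2-fold higher in CD8 barcodes and 0 lower, and 7 and 0 in the macrophage-low ones, where 6.74% of 4469 compared genes were higher and 2.71% lower. Top2a, a topoisomerase of dividing cells, had 0 UMIs in CD4 and 54 in CD8 barcodes, in 8 of 79, with 20 of them in 1 barcode. Birc5, the survivin gene, had 54 UMIs in 4 CD8 barcodes, 24 of them in 1. Gzma had 510 UMIs in 6 CD8 barcodes. Plac8, a small cysteine-rich protein, was at 30.9 CPM (12.4 to 63.6) in CD4 and 226 CPM (186 to 273) in CD8 barcodes, and its 7 CD4 UMIs came from 1 barcode.

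**Figure D4:**
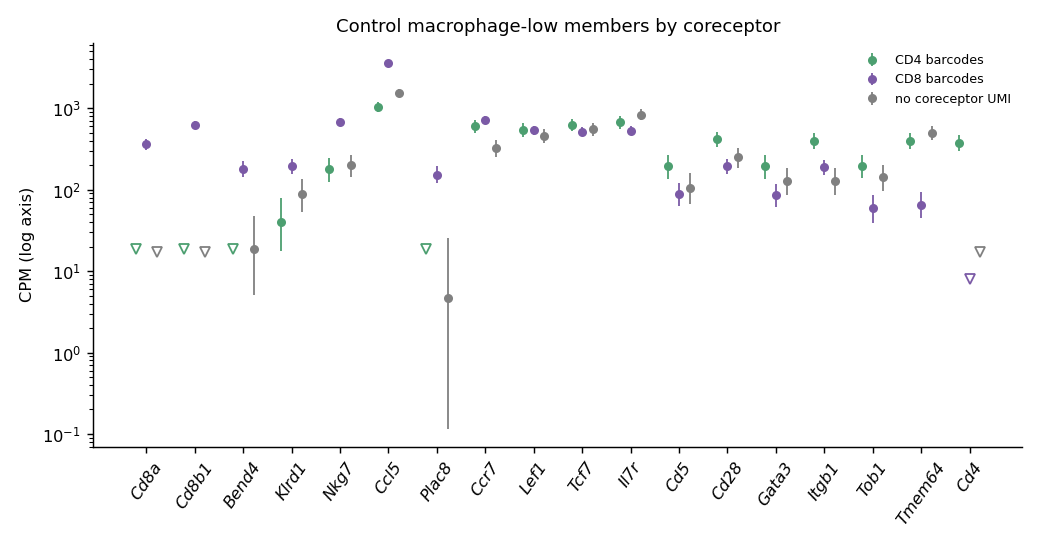
Levels of 18 genes in macrophage-low control T cell barcodes are plotted in CPM (log axis) for CD4 (green), CD8 (purple), and no-coreceptor (grey) barcodes; bars are exact Poisson 95% intervals, and open triangles are the upper bound of a group with 0 UMIs. Bend4, Klrd1, Nkg7, Ccl5, and Plac8 are higher in CD8 barcodes, Ccr7, Lef1, Tcf7, and Il7r lie close together in CD4 and CD8 barcodes, and Cd28, Tob1, and Tmem64 are higher in CD4 barcodes.

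Few genes of TCR signaling differed between the lineages, whereas larger parts of the short helper and CD4 lineage lists did. Of 20 TCR signaling genes 1 (Cd5) was at least 2-fold lower in CD8 barcodes, of 8 helper cytokine and regulator genes 2 (Gata3 and Maf), and of 15 CD4 lineage genes 4 (Cd5, Gata3, Ikzf2, and Itgb1), against 3.73% of all compared genes. Ctla4, of the CD4 lineage list, was the 1 gene of these lists at least 2-fold higher. Cd5, a receptor that dampens TCR signals, was at 185 CPM (133 to 250) in CD4 and 83.8 CPM (59.9 to 114) in CD8 barcodes. Cd28 was at 375 CPM (299 to 463) and 193 CPM (155 to 236), a log2 ratio of -0.96. Gata3, a factor of CD4 and type 2 helper cells, was at 181 CPM (130 to 245) and 81.7 CPM (58.1 to 112). All 3 were lower in CD8 barcodes beyond their counting intervals, and in the macrophage-low barcodes their log2 ratios were -1.14, -1.11, and -1.17. Tob1, an antiproliferative gene of resting T cells, was at 181 and 58.7 CPM, and Tmem64 at 353 CPM (280 to 439) and 64.9 CPM (44.1 to 92.2). Tmem64 was also high in barcodes without a coreceptor UMI, at 439 CPM (361 to 528).

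The largest CD4-high differences apart from Cd4 were Mt1, H2-Eb1, Wfdc17, H2-Ab1, Marcks, Hspa1b, Cd209a, H2-Aa, and Cd74, several of them genes of antigen-presenting cells. Mt1, a metallothionein, had 84 of its 89 CD4 UMIs in 1 barcode. H2-Eb1 was at 1366 CPM in CD4 and 136 CPM in CD8 barcodes, in 11 of 40 and 24 of 79, with 171 of its 310 CD4 UMIs in 1 barcode. In the macrophage-low barcodes H2-Eb1 was at 669 and 140 CPM, with 109 of the 132 CD4 UMIs in 1 barcode. Cd209a, a dendritic cell lectin, had 63 UMIs in all CD4 barcodes, 48 of them in 1, and 0 in the macrophage-low ones. The MHC class II list had a median log2 ratio of -2.82 over all (6 of 6 genes at least 2-fold lower in CD8) and of -1.59 in the macrophage-low barcodes (4 of 5 genes).

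CD8 barcodes allowed the libraries to be compared within a lineage, with 77 macrophage-low barcodes in the control and 12 in the ISO library. Ccr7 was at 712 CPM (637 to 794) and 383 CPM, a log2 ratio of -0.86 (-1.65 to -0.23), and Lef1 had a ratio of -1.34 (-2.49 to -0.50). S100a4 was higher in ISO CD8 barcodes, at a ratio of 2.03 (1.56 to 2.47), as were Klf2 at 1.16 (0.78 to 1.51), Fos at 1.398 (0.767 to 1.959), and Jun at 1.77 (1.10 to 2.37). Nr4a1 and Nr4a2 were lower, at -1.75 (-3.81 to -0.53) and -2.30 (-4.36 to -1.09). The directions of these 8 genes were those of the macrophage-low barcodes as a whole, of which the CD8 barcodes are a large part. In macrophage-low barcodes without a coreceptor UMI, Klf2 and Jun had opposite signs, at -2.38 (-5.76 to -0.81) and -0.78 (-2.86 to 0.48). These rest on 2 and 4 ISO UMIs, and the remaining genes kept their direction there. Cxcr6 had too few UMIs in CD8 barcodes to be compared.

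Ccr7 and Ccl5 marked largely separate barcodes. In the control library 105 of 172 barcodes had Ccr7 without Ccl5 (61.0%, 53.3% to 68.4%), 29 had Ccl5 without Ccr7 (16.9%), 10 had both (5.81%), and 28 had neither. Ccr7 without Ccl5 was seen in 54 of 79 CD8 and 28 of 40 CD4 barcodes, so both lineages were mostly of this kind. In the macrophage-low ISO barcodes 6 of 19 had Ccr7 alone (31.6%, 12.6% to 56.6%), 2 had Ccl5 alone, 2 had both, and 9 had neither. The barcodes with neither were 16.4% (11.1% to 22.9%) of macrophage-low control and 47.4% (24.4% to 71.1%) of macrophage-low ISO barcodes. These shares were not thinned to an equal depth, and the median depths were 5048 and 3517 UMIs. The 9 ISO barcodes included all 7 macrophage-low ones without a coreceptor UMI.

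Part of the barcodes with neither coreceptor belonged to a type 17 group. Of the 8 gamma delta and type 17 genes compared in macrophage-low barcodes, 6 (Blk, Cd163l1, Ramp1, Serpinb1a, Tmem176a, and Tmem176b) were at least 2-fold higher in ISO and 0 lower, at a median of 2.27. These ratios are relative to the UMIs of macrophage-low T cell barcodes, which numbered 165 in the control and 19 in the ISO library. Cd163l1, also called SCART1, lies on chr7:140218267-140231145 (GRCm38) and encodes a scavenger receptor of gamma delta T cells, and Tmem176a and Tmem176b encode membrane proteins. Cd163l1 was at 95.6 CPM (76.3 to 118) in macrophage-low control and 588 CPM (427 to 789) in macrophage-low ISO barcodes, Tmem176a at 91.1 CPM (72.3 to 113) and 788 CPM (600 to 1017), and Tmem176b at 119 CPM (97.6 to 144) and 895 CPM (694 to 1137). Cd163l1 was nearly absent from macrophage barcodes, at 0.0608 CPM in the ISO library, whereas Tmem176b stood at 829 CPM in control and 200 CPM in ISO macrophage barcodes. Over all barcodes, with macrophage-high ones included, the log2 ratio of Cd163l1 was 0.42 (-0.05 to 0.89), against 2.63 (2.06 to 3.16) in the macrophage-low ones.

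T cell barcodes with a Cd163l1 UMI, a grouping made after the data were seen, numbered 7 of 172 in the control and 8 of 59 in the ISO library. Barcodes that failed the T cell rule were not included in this grouping. Of macrophage-low barcodes they were 7 of 165, or 4.24% (1.72% to 8.55%), and 5 of 19, or 26.3% (9.15% to 51.2%). The larger ISO share thus came with a similar number of Cd163l1 barcodes among far fewer macrophage-low T cell barcodes. No coreceptor UMI was found in 6 of the 7 control and in all 8 ISO Cd163l1 barcodes. After thinning to 1000 UMIs, Cd163l1 was found in 0 of 1509 control and 0 of 97 ISO B cell barcodes and in 0 of 905 and 0 of 1332 macrophage barcodes, against 6 of 164 and 5 of 19 macrophage-low T cell barcodes. Cd163l1 barcodes among the macrophage-low ones were deeper than these as a whole in the control library, with medians of 7069 and 5048 UMIs, and alike in the ISO library, with 3675 and 3517.

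These barcodes had gamma and delta TCR transcripts and few UMIs of α chain joining segments. A set of 12 TCR gamma and delta genes had 22 UMIs in 6 of the 7 control barcodes, or 491 CPM (307 to 743), and 4 UMIs in the 44 other control barcodes without a coreceptor, or 18.7 CPM (5.08 to 47.8). CD4 barcodes had 0 and CD8 barcodes 2 such UMIs. In the ISO library the set had 17 UMIs in 7 of the 8 barcodes and 1 in the 17 others without a coreceptor. The 37 Traj genes, joining segments of the TCR α chain, had 1 UMI in the 7 control barcodes and 40 in the 44 others, and 0 and 18 in the ISO library. Trbc1 and Trbc2 together were at 825 CPM (581 to 1137) in the 7 and 728 CPM (618 to 851) in the 44, so transcripts of the β chain constant region were present in both. The symbols of these TCR genes do not resolve every segment, and transcripts may come from unrearranged loci.

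Other type 17 transcripts lay in the same barcodes. Blk, a Src-family kinase of B cells and of interleukin 17-producing gamma delta T cells, was at 513 CPM (325 to 770) in the 7 and 9.33 CPM (1.13 to 33.7) in the 44. Ramp1, a receptor subunit for the neuropeptide CGRP, was at 937 CPM (675 to 1266) and 107 CPM (68.0 to 161), Cxcr6 at 736 CPM (507 to 1034) and 84.0 CPM (49.8 to 133), and S100a4 at 4772 CPM (4154 to 5456) and 648 CPM (545 to 766). All 4 were higher in the Cd163l1 barcodes beyond counting error. Lef1 was at 0 UMIs in the 7 control and in the 8 ISO barcodes and at 115 and 14 UMIs in the others without a coreceptor. In the control library this is 0 CPM (0 to 82.3) against 536 CPM (443 to 644). Il17a itself had 12 UMIs in 2 control barcodes and 2 in 1 ISO barcode.

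The upstream sequences of 4 genes of this group are shown because Cd163l1 defines it, Tmem176a and Tmem176b are abundant in it, and Il23r encodes the receptor for interleukin 23. They are RefSeq sequences on GRCm38.p6, from 250 bases before to 50 bases after the transcription start, printed along the strand of the gene. Capitals mark AGGTCA, a core hexamer of nuclear receptor sites, searched on both strands (TGACCT on the other). The windows are chr7:140218017-140218316 on the plus strand for Cd163l1, chr6:48841233-48841532 on the plus strand for Tmem176a, chr6:48841088-48841387 on the minus strand for Tmem176b, and chr6:67491806-67492105 on the minus strand for Il23r.
Cd163l1: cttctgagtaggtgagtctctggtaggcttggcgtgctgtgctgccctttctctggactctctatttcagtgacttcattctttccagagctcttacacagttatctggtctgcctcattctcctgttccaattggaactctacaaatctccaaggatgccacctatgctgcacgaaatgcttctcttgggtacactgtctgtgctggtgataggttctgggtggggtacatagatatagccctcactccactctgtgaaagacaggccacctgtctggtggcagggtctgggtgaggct
Tmem176a: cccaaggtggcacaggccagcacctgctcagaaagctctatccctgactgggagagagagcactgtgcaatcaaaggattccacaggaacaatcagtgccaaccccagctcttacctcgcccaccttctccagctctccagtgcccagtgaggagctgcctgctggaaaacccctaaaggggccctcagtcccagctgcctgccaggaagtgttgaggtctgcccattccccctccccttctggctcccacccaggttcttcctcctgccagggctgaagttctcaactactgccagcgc
Tmem176b: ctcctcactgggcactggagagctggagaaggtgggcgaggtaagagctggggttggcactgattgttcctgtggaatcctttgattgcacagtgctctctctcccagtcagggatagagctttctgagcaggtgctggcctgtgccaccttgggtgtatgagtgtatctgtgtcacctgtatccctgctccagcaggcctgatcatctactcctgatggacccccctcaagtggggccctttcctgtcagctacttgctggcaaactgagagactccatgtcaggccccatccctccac
Il23r: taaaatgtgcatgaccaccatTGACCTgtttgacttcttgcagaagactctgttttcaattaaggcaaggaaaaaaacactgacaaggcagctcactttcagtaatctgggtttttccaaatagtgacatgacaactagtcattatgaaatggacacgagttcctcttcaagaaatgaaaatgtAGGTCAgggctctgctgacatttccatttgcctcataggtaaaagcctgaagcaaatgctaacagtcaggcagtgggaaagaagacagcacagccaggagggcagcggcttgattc
The hexamer occurred 2 times in the Il23r window, in both orientations, and 0 times in the other 3 windows. It occurred in 16.3% of 32851 promoters of this length. Tmem176a and Tmem176b are neighbours transcribed in opposite directions whose starts lie 346 bases apart, so that their windows share 155 bases. Both genes were found together: in the 7 control Cd163l1 barcodes Tmem176a was at 1338 CPM (1021 to 1722) and Tmem176b at 1650 CPM (1296 to 2072), against 74.6 and 107 CPM in the 44 others without a coreceptor. A match is a description of the letters, and its absence says nothing about binding.

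Regulatory T cells were at the limit of detection. Foxp3, their defining factor, had 7 UMIs in 2 control barcodes and 0 in the 59 ISO barcodes, which allows a share of up to 5.08% of ISO barcodes with a UMI. The regulatory T cell list had 9 comparable genes, at a median log2 ratio of -1.51 over all barcodes and 0.24 in the macrophage-low ones.

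The total used for scaling moved the counts of genes. With total UMIs, 1179 genes were at least 2-fold higher and 1200 lower in ISO over all barcodes. When ribosomal, mitochondrial, and Gm26924 UMIs were left out of the totals, 856 were higher and 1797 lower, and the median of all genes shifted by -0.29. With the median of ratios it shifted by -0.11.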

How the data were processed

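The authors deposited 1 table of UMI counts per gene and cell barcode for each library, as unnormalized counts from 10x Genomics libraries. Per the submitters' processing notes they used bcl2fastq 2.19.1.403, STAR 2.7.3a, featureCounts 1.6.4, and UMI-tools 1.0.0 with build mm10. The control library held 5927 barcodes and the ISO library 5514, of which 5641 and 5437 passed the limits on genes and mitochondrial UMIs, with median depths of 4790 and 8537 UMIs.

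Counts were summed over barcodes and divided by the total UMIs of those barcodes. Each group is 1 library of 3 pooled hearts, so levels carry exact Poisson and shares exact Clopper-Pearson 95% intervals, ratios of levels carry exact conditional intervals, and ratios of shares carry approximate ones. No test was run. Ratios used a pseudocount of 0.5 UMI per group and genes with at least 20 UMIs in the groups compared, and 2-fold was the size counted. Groups with 0 UMIs were set to a floor of 3 counts, and the share that 0 barcodes allows was likewise taken as 3 counts of the total, not as the exact upper limit. For shares of barcodes with a UMI, barcodes were thinned to 1000 UMIs. The members and the 36 gene lists were chosen with earlier results of these data known. Named genes were those of the lists with at least 20 UMIs and of the rule, the 10 with the largest ratio each way between the libraries among genes with at least 50 UMIs and 100 CPM in the higher library, the same among genes at least as high as in that library's macrophage barcodes, the 10 each way between control CD8 and CD4 barcodes, and, chosen after values were seen, the same for macrophage-low barcodes, together with the TCR segment genes. No doublet caller was used. The rule limits markers of other lineages but left at least 1% macrophage-list UMIs in 40 of 59 ISO barcodes, and an alternative left out deep barcodes. Some genes of the lists are not reported here by name. Gene positions are from GENCODE M21, in which 22317 of 23946 symbols were found once. Calculations used Python 3.11.15, numpy 2.4.6, scipy 1.17.1, and pandas 2.3.3, and were tested on simulated data.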

Additional observations from a re-analysis of the deposited data

Results flagged for a closer look

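For 2 genes the CD8 to CD4 ratio had opposite signs in the libraries, with intervals of each ratio that lay on opposite sides of 0. Hspa1b, a heat shock protein, had a log2 ratio of -2.96 in the control and 1.64 in the ISO library. Plac8 had 2.78 in the control and -2.14 in the ISO library, where all 9 CD4 barcodes were macrophage-high. With 1 library per group, the difference between the libraries was not tested.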

How the results depend on the processing

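The lower share of T cells among kept barcodes kept its direction, at -1.13 to -1.91, under changed limits on CD3, C1q, and mitochondrial UMIs, under thinning, and without macrophage or B cell barcodes in the denominator. It turned to 1.16 with lymphocyte barcodes alone, and was -3.07, -3.17, and -2.77 with macrophage-list UMIs under 1%, 0.5%, and 2%, limits chosen after the data were seen. CD8 barcodes of the control library were 76.8% of CD4 and CD8 barcodes with at least 2 coreceptor UMIs and 75.6% after thinning to 1500 UMIs. In the ISO library they were 92.9% after thinning to 1000, 100% after thinning to 1500, and 100% among macrophage-low barcodes. Genes at least 2-fold higher and lower in ISO numbered 736 and 672 with at least 50 UMIs, 3007 and 2782 without a filter, 311 and 308 after thinning, 770 and 733 under the 1% limit, and 749 and 746 under the 0.5% limit. For CD8 over CD4 they numbered 49 and 47 with at least 50 UMIs and 1810 and 2433 without a filter, where fewer or more genes were compared. After thinning, the ISO to control log2 ratio turned to 0.20 for Cd8a, 1.30 for the regulatory T list, and 0.77 for the helper list. With the scaled macrophage profile subtracted it turned to 0.021 for Cd3d, 0.11 for Trbc1, 0.10 for Trbc2, 0.054 for Il7r, -1.24 for Maf, -1.01 for Spp1, -5.99 for Fos, 0.058 for the TCR-CD3 list, and -0.20 for the immediate early list. Under the 1% limit it turned to 0.41 for Cd3d, 0.47 for Cd3e, 0.55 for Trbc1, 0.020 for Lck, 0.69 for Cd8a, 0.47 for Cd8b1, 0.60 for Il7r, 0.20 for Ccl5, 0.66 for Nkg7, and -2.82 for Apoe, and for the lists to 0.44 (TCR-CD3), 0.47 (coreceptors), 0.24 (regulatory T), 0.20 (helper), 0.15 (inhibitory), 0.13 (CD4 lineage), and 0.047 (CD8 lineage). Cd209a turned to 3.92 for CD8 over CD4. The cause of these turns was not tested, and Apoe is on the macrophage list that sets the 1% limit. A turn was counted only where the main ratio was at least 2-fold. Sign changes of smaller ratios, such as that of Cd3g under the 1% limit, are therefore not listed here. Of the other values, 1362 stayed within their counting interval, or for lists within a fixed distance of the main median. The remaining 308 moved, and a change of sign among them was not counted apart. No paired analysis was possible because each group is 1 library, and leaving out a replicate was not possible for the same reason. The 19 macrophage-low ISO barcodes limit what could be seen, and genes in few barcodes rest on single cells.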

Other observations

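In the macrophage-low barcodes 13.6% of all compared genes were at least 2-fold higher in ISO and 13% lower, and the counts of the lists below are descriptions to be read against these shares. Lymphocyte trafficking genes lay on both sides, with Ccr2, Cd44, Cxcr6, and Gpr183 at least 2-fold higher in ISO and 4 of 24 genes lower (Ccr7, Cxcr4, Icam2, and Itgb1). Of 25 cytokine receptor and signaling genes Il2ra and Jak3 were at least 2-fold higher, and Il12rb2, Il17ra, Il21r, Il6st, and Stat5b lower. These rest on few ISO UMIs in CD8 barcodes and in those without a coreceptor UMI. The counts were 0 and 10 for Il2ra, 2 and 1 for Jak3 and for Stat5b, and 8 and 0 for Il21r. They were 3 and 0 for Il17ra and for Il6st, and 1 and 0 for Il12rb2. Of 23 survival and death genes Bax, Bcl2a1b, and Gadd45b were at least 2-fold higher and Bad, with 0 ISO UMIs, lower. Of 19 heat shock and chaperone genes Hspa5 and Pdia6, both of the endoplasmic reticulum, were at least 2-fold higher.

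The gene groups of the protein and energy machinery differed less. The median log2 ratio of 79 cytosolic ribosome genes was -0.55 over all barcodes and -0.02 in the macrophage-low ones. That of 32 nuclear respiratory chain genes was 0.47 and 0.33, and that of 7 genes of the mitochondrial genome was -0.60 and -0.37.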
